A study of Mus musculus with 8 samples.

Results

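The genes of the proteasome were examined in CCR8+ and CCR8- conventional CD4+ T (Tconv) cells that had been sorted from mouse melanomas. Members were all genes whose symbol starts with Psm, then one of the letters a to g and a number, with a mean normalized value of at least 10 over the 8 libraries. The name matched 48 genes of the 11233 in the table, and all 48 reached the mean of 10, as did 11032 genes in all. They comprise 7 alpha and 7 constitutive beta subunits of the 20S core, 5 genes of the immunoproteasome group (Psmb8, Psmb9, Psmb10, Psme1 and Psme2), 6 ATPases and 11 non-ATPase subunits of the 19S cap, 3 assembly chaperones of the 19S cap, 4 assembly chaperones of the 20S core, and the further activators Psme3 and Psme4 with the inhibitor Psmf1. The other two matches were Psme2b, a copy of Psme2, and Psmc3ip, which shares the letters of the name but codes for a recombination factor and not for a proteasome subunit. Psma8 and Psmb11 were not analysed here.

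B16-F10 melanoma cells had been implanted under the skin of Foxp3EGFP-DTR mice aged 8 to 14 weeks, in which regulatory T (Treg) cells carry both a green fluorescent protein and the receptor for diphtheria toxin (DTx). All mice of both groups were given DTx, 4 injections of 1 µg between day 7 and day 13, so that every library comes from a Treg cell-depleted host, and the cells were sorted on day 16. EGFP-negative CD4+ cells were divided by surface CCR8 into 4 CCR8pos_DTX and 4 CCR8neg_DTX libraries, which carry the replicate numbers 1 to 4 and were made from little RNA with a SMARTer kit. Because a cell that lost or never had EGFP falls into this gate whatever its history, the gate and not the lineage defines Tconv cells. The authors describe 4 biological replicates, all of them isolated on 1 day. Nothing in the labels says whether a replicate number stands for 1 mouse, so p-values measure the spread between these libraries only.

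The proteasome degrades proteins that carry ubiquitin chains. Its barrel, the 20S core, is built from stacked rings of alpha and beta subunits, and 3 of the beta subunits (Psmb6, Psmb7 and Psmb5) carry the active sites, while the 19S cap recognizes, unfolds and feeds in the substrate. In lymphocytes and in cells exposed to interferon, Psmb9, Psmb10 and Psmb8 take the places of these 3 subunits to form the immunoproteasome, and Psme1 and Psme2 form the PA28 ring that can sit on the core in place of the cap. The peptides released are the main supply for presentation by MHC class I molecules, and proteasome activity also controls the turnover of signaling proteins in activated T cells.

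The libraries held between 12067780 and 17802628 reads, of which 1 read was worth 0.735 to 1.14 normalized units. Ccr8 itself was at 2039, 1293, 6214 and 4637 in CCR8- replicates 1 to 4 and at 7975, 6970.2, 42508 and 22965 in CCR8+ replicates 1 to 4, so that every CCR8+ library lay above every CCR8- library. All 6 T cell markers examined were present in all 8 libraries. CCR8- replicate 1 stood apart, with 8569 genes detected and 242 genes at 0 that were at 100 or more in each of the other libraries, whereas CCR8+ replicates 1 and 3 had 44 and 36 such genes and the remaining libraries 0. Transcripts of other cells were present unevenly. The summed level of 7 macrophage markers ranged from 27.6 to 58119 in CCR8- and from 2514 to 25441 in CCR8+ libraries, and that of 5 melanoma markers from 105 to 17214 and from 232 to 21698. The sum of 2 CD8 T cell markers ranged from 980 to 3805 in CCR8- and from 478 to 1227 in CCR8+ libraries. That of 2 NK cell markers reached 256 in CCR8- libraries and was 0 in every CCR8+ library. The 1 neutrophil marker went the other way, with at most 81.8 in CCR8- and 267 in CCR8+ libraries. The part of these transcripts in the results below was not tested, and in such bulk libraries fewer cells of a type cannot be told apart from less RNA per cell.

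Transcripts of every member were detected in all 8 libraries, and no member passed the test for a difference between CCR8+ and CCR8- cells. By limma, 0 of the 48 members passed an adjusted p of 0.05, nor did any of the 11032 genes tested (0.0%), and the members' adjusted p-values lay between 0.838 and 0.999. At an unadjusted p under 0.05 there were 4 members, all higher in CCR8+ cells (Psma6, Psmb4, Psmc6 and Psmb7), beside 2.8% of all genes higher and 2.29% lower. On the recovered reads edgeR also called 0 members, and 1 member had an unadjusted p under 0.05, beside 487 of the 11032 genes. DESeq2 called 0 members (beside 1.15% of the genes it adjusted), with 3 at an unadjusted p under 0.05 (602 of all genes) and no adjusted p for 10 members. With the replicate number as a term it again called 0 members (beside 1.12%). The groups did not overlap for 3 members (Psma6, Psmb4 and Psmc6), each higher in CCR8+ cells, beside 2.37% of all genes higher and 2.03% lower. In all 4 same-numbered pairs 10 members were higher in the CCR8+ library and 3 were lower, against 8.44% and 8.1% of all genes. The median level of the members was 3402, against 333 for all genes. Of the 2663 genes with a mean of 1000 or more, 345 were higher in all 4 pairs and 228 lower. Without overlap 116 of these genes were higher and 42 lower, and at an unadjusted p under 0.05 by limma 173 were higher and 85 lower. The median log2 fold change (CCR8+ minus CCR8-) of the members was 0.05, next to 0.04 over all genes tested. It was above 0 for 29 of 48 members (60.4%), for 52.4% of all genes and for 57.9% of those with a mean of 1000 or more. With each library rescaled to the same total, it was above 0 for 21 members (43.8%) and for 48.2% of all genes, with medians of -0.02 and -0.03, and with TMM factors for 29 members.

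**Figure D1:**
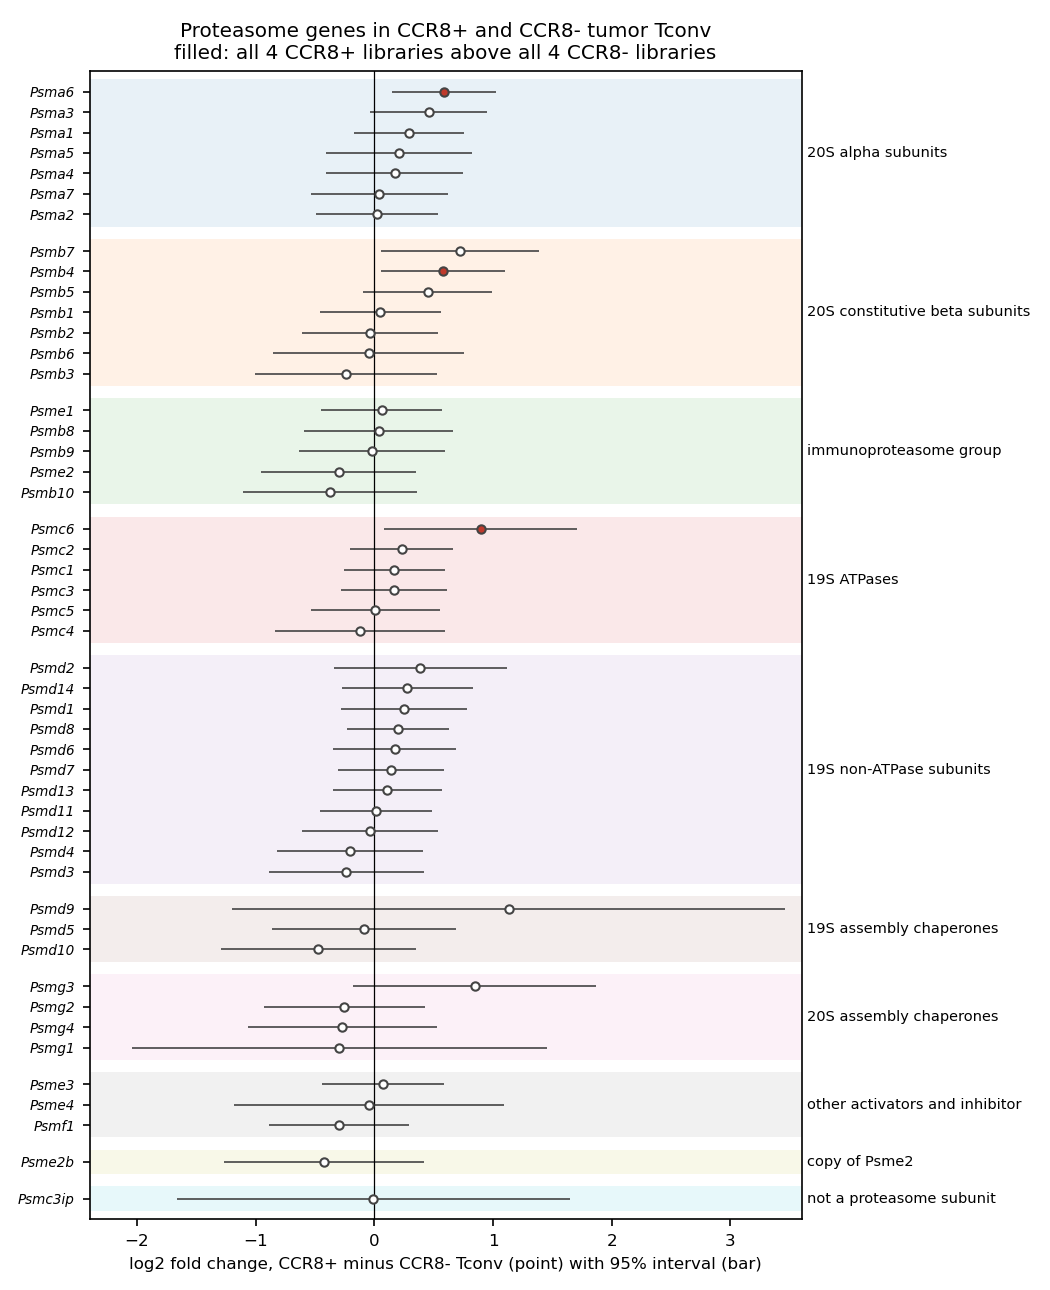
Log2 fold change of each of the 48 members between CCR8+ and CCR8- Tconv cells (x axis, point), with its 95% interval from limma (bar, n = 4 libraries a group), ordered by role on the y axis. Filled points mark the 3 members whose 4 CCR8+ libraries all lay above the 4 CCR8- libraries, and the intervals of all members except Psma6, Psmb7, Psmb4 and Psmc6 include 0.

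The summed level of the members was similar in the populations, and the CCR8- libraries were the more uneven. It was 249236, 193785, 141163 and 208712 normalized units in CCR8- replicates 1 to 4 and 200839, 204403, 184233 and 214558 in CCR8+ replicates 1 to 4, which is between 1.23% and 1.85% of a library. The highest and the lowest of the 8 sums thus both belonged to CCR8- libraries. The SD over libraries, on the log2 scale, was larger in CCR8- than in CCR8+ cells for 38 of 48 members (79.2%), as it was for 57.1% of all genes tested and 65.2% of those with a mean of 1000 or more. Its median over members was 0.46 in CCR8- and 0.24 in CCR8+ cells.

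The spread lay mostly in CCR8- replicates 1 and 3. CCR8- replicate 3 was the lowest of the 8 libraries for 26 members (54.2%), where it was the lowest for 12.0% of all genes and 28.2% of those with a mean of 1000 or more. CCR8- replicate 1 was the highest for 20 members (41.7%, against 22.8% of all genes) and the lowest for another 7 (14.6%, against 41.2% of all genes). Of the genes with a mean of 1000 or more, it was the highest for 28.2% and the lowest for 24.6%. In this library 10 members (20.8%) lay more than 1 log2 unit from their own mean over the libraries, as did 52.2% of all genes, while 0 members did so in CCR8- replicates 2 and 3 and CCR8+ replicates 1, 2 and 4, 1 member in CCR8- replicate 4 and 2 members in CCR8+ replicate 3. The median difference of the members within the same-numbered pairs moved accordingly. It was -0.27, 0.16, 0.38 and 0.05 in pairs 1 to 4, where genes with a mean of 1000 or more gave -0.03, 0.02, 0.25 and 0.03. Without CCR8- replicate 3 the median fold change of the members was -0.08 (0.04 for all genes), and without CCR8- replicate 1 it was 0.19 (-0.08 for all genes).

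**Figure D2:**
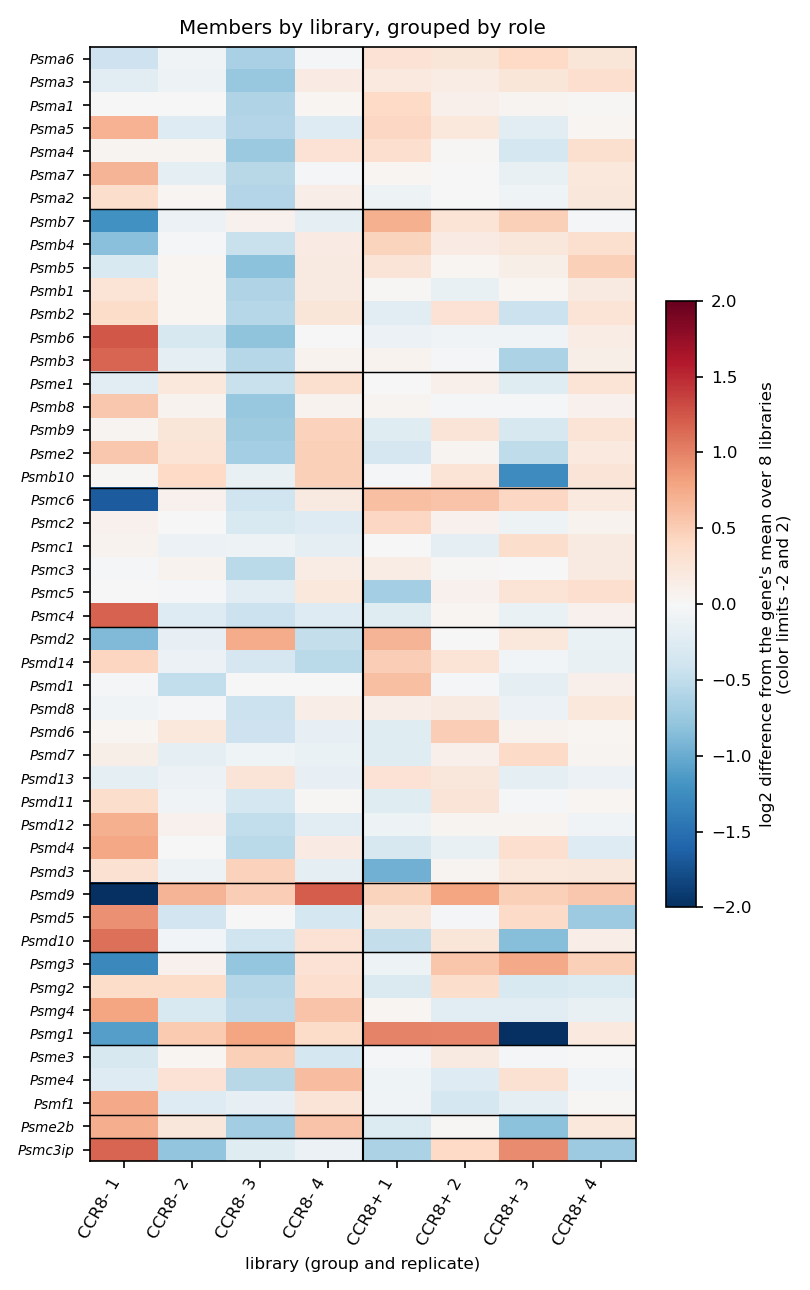
Heat map of the 48 members (y axis, grouped by role between the horizontal lines) in the 8 libraries (x axis). Color gives the log2 difference of a library from the gene's own mean, limited at -2 and 2. CCR8- replicate 3 is below the mean for most members (median difference -0.44), and CCR8- replicate 1 has the highest value for 20 members and the lowest for 7.

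Among members, levels can be compared only per length of exon. Normalized units per kilobase, averaged over the 8 libraries, were 13208 for Psmb3, a structural beta subunit, 12640.4 for Psmb8, 11462 for Psme2 and 10552 for Psmb6, the 4 highest. Their order rested on CCR8- replicate 1, since without that library Psmb8 (11886) was above Psmb3 (11160.2), as it was in the mean of the CCR8+ libraries (12491 and 11534). The median per kilobase was 8371 in the immunoproteasome group, 3342 for the alpha and 3523 for the constitutive beta subunits, 2084 for the 19S ATPases and 1282 for the 19S non-ATPase subunits. Assembly factors were lower, with medians of 272 for the 19S and 586 for the 20S chaperones. Psme4, which codes for the large activator PA200, was the lowest at 36.3. Exon length here is that of all annotated transcripts of a gene merged.

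The 7 alpha subunits form the outer rings of the core, which gate the entry of substrate. All 7 had a fold change above 0, between 0.02 for Psma2 and 0.59 for Psma6, with a median of 0.21 against 0.04 for all genes. Without CCR8- replicate 3 it was above 0 for 4 of the 7, with a median of 0.05, and with equal library totals for 5 of them. On the recovered reads edgeR and DESeq2 placed Psma7 and Psma2 below 0, but with the replicate number as a term both placed all 7 above 0. Psma6 was at 3452, 4375, 2939 and 4492 in CCR8- replicates 1 to 4 and at 5613, 5426, 6096 and 5469 in CCR8+ replicates 1 to 4. No CCR8+ library was as low as any CCR8- library, and the means were 3815 ± 746 and 5651 ± 307 (SD, n = 4). The log2 fold change was 0.59 (SE 0.20) with an adjusted p of 0.838 by limma and an exact two-sided permutation p of 0.0286, the smallest that 4 against 4 libraries allow. Psma3 was at 6244, 6832, 4357 and 8254 in CCR8- and at 8411, 8100.4, 8667 and 9272 in CCR8+ replicates. One CCR8- library (replicate 4) exceeded one CCR8+ library (replicate 2), and the fold change was 0.46 (SE 0.22, adjusted p = 0.838), or 0.28 without CCR8- replicate 3. Psma1, Psma5, Psma4, Psma7 and Psma2 had adjusted p-values of 0.838 or more and overlapping groups.

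Of the 7 constitutive beta subunits, 4 had a fold change above 0 and 3 below, with a median of 0.05. The median was 0.36 without CCR8- replicate 1 and -0.14 without CCR8- replicate 3. Psmb4, a structural subunit of the inner ring, was at 2243, 3921, 2962 and 4491 in CCR8- replicates 1 to 4 and at 5467, 4498, 4718 and 5042 in CCR8+ replicates 1 to 4. The groups did not overlap, but the highest CCR8- library (4491) and the lowest CCR8+ library (4498) all but met. Its log2 fold change was 0.58 (SE 0.24, adjusted p = 0.838, exact permutation p = 0.0286). Psmb7, which has the trypsin-like active site, was at 799, 1709.6, 1978 and 1622 in CCR8- and at 3053, 2254, 2593 and 1807 in CCR8+ replicates. CCR8- replicate 3 reached above CCR8+ replicate 4, and CCR8- replicate 1 was far below the rest, so that the fold change of 0.72 (SE 0.30, adjusted p = 0.838) was 0.43 without that library. In the annotation 34.9% of the exonic bases of Psmb7 are shared with exons of Nek6. Psmb5, with the chymotrypsin-like site, was at 1988, 2520.3, 1387 and 2782 in CCR8- and at 2939, 2522, 2657 and 3414 in CCR8+ replicates. It was higher in the CCR8+ library of every pair, by as little as 0.0007 log2 units in pair 2, and its groups overlapped (fold change 0.45, SE 0.25, adjusted p = 0.838, and 0.25 without CCR8- replicate 3).

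The beta subunits Psmb6 and Psmb3, both with fold changes below 0, were highest in CCR8- replicate 1. Psmb6, with the caspase-like site, was at 18329, 6205, 4453 and 7721 in CCR8- and at 7171, 7406, 7427 and 8653 in CCR8+ replicates. CCR8- replicate 1 thus held more than any other library, while the CCR8+ values lay close together. The fold change of -0.05 (SE 0.37, adjusted p = 0.985) became 0.36 without it. Psmb3 had the same shape, at 21098 in CCR8- replicate 1 and between 6342 and 9850.0 in the other CCR8- libraries, with CCR8+ libraries between 6039 and 10229 (fold change -0.24, and 0.11 without CCR8- replicate 1). Psmb2 was at -0.04 and Psmb1 at 0.05.

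**Figure D3:**
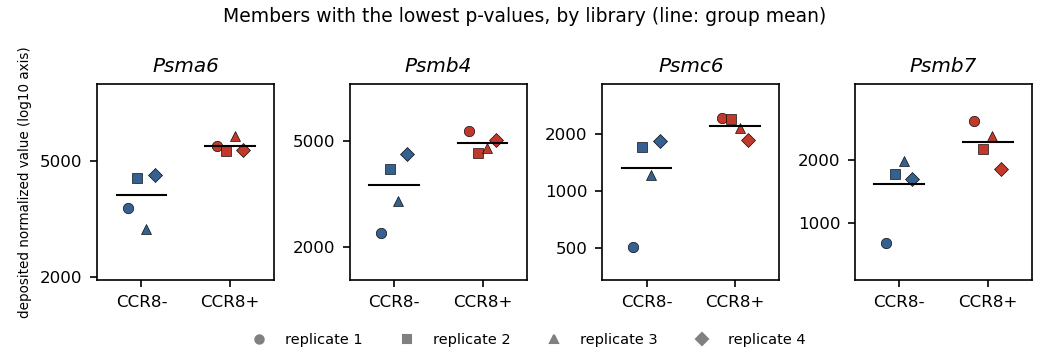
Normalized values (y axis, log10 scale, a separate range for each gene) of the 4 members with an unadjusted p under 0.05 in the CCR8- and CCR8+ libraries (x axis). Symbols give the replicate number and lines the group means, for example 3815 and 5651 for Psma6. CCR8- replicate 1 (circle) is the lowest library for Psmb4, Psmc6 and Psmb7, and CCR8- replicate 3 (triangle) for Psma6.

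In the values as deposited, the immunoproteasome group did not differ between the populations in a direction shared by its 5 genes. Fold changes were above 0 for 2 of them and below 0 for 3, with a median of -0.02 and a range from -0.37 to 0.06, and 0 of 5 had non-overlapping groups. The summed level of the 5 genes was 54265 ± 14443 in CCR8- and 50366 ± 6699 in CCR8+ libraries (SD, n = 4). In the pairs their median difference was -0.29, -0.11, 0.20 and -0.19. With equal library totals all 5 genes had a fold change below 0 (median -0.09), as did 51.8% of all genes. Without CCR8- replicate 3 all 5 were below 0 as well (median -0.26), beside 47.4% of all genes. Without CCR8- replicate 2, 3 of the 5 were above 0 (median 0.06).

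Psmb8 lies within the MHC region of chromosome 17 (GRCm38 chr17:34197721-34201454, plus strand) and had the highest value of the members before correction for length. It was at 29174, 21111, 11849 and 21156 in CCR8- replicates 1 to 4 and at 20933, 19668, 19526 and 21213 in CCR8+ replicates 1 to 4. The CCR8+ libraries were close to each other and lay inside the range of the CCR8- libraries. The log2 fold change was 0.04 (SE 0.28, adjusted p = 0.986), with a 95% interval from -0.59 to 0.66. Psmb9, nearby on the opposite strand (chr17:34181987-34187764), was at 7609, 8664, 4488 and 10171 in CCR8- and at 6222, 8765, 5878 and 8924 in CCR8+ replicates. These groups overlapped over almost their whole range (fold change -0.02, SE 0.28, adjusted p = 0.994, interval from -0.63 to 0.59). In the annotation 15.7% of the exonic bases of Psmb9 are shared with Tap1 and 11.4% of those of Psmb8 with Gm20496, and the use of strand in counting is not given.

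Psmb10 was the immunoproteasome subunit with the lowest fold change. It was at 3501, 4576, 3132 and 4812 in CCR8- replicates 1 to 4 and at 3409, 4183, 1445 and 4149 in CCR8+ replicates 1 to 4. CCR8+ replicate 3 stood below the other 7 libraries, which overlapped. Psmb10 was lower in the CCR8+ library of all 4 pairs, with a fold change of -0.37 (SE 0.33, adjusted p = 0.844) that was -0.02 without CCR8+ replicate 3. Of the activator genes, which lie near each other on chromosome 14, Psme1 was at 7901, 10650.3, 6741 and 11440.0 in CCR8- and at 9072, 9872, 7765 and 11026 in CCR8+ replicates, a fold change of 0.06 (SE 0.23, adjusted p = 0.964). Psme2 was at 15561, 12952, 6713 and 14857 in CCR8- and at 8516, 11122, 7535 and 12242 in CCR8+ replicates. CCR8- replicate 3 was the lowest of these 8 values and the other 3 CCR8- libraries were the highest. The fold change of Psme2 was -0.30 (SE 0.30, adjusted p = 0.849), and without CCR8- replicate 3 it was -0.58 with groups that did not overlap, in the setting where 3.71% of all genes were lower without overlap.

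**Figure D4:**
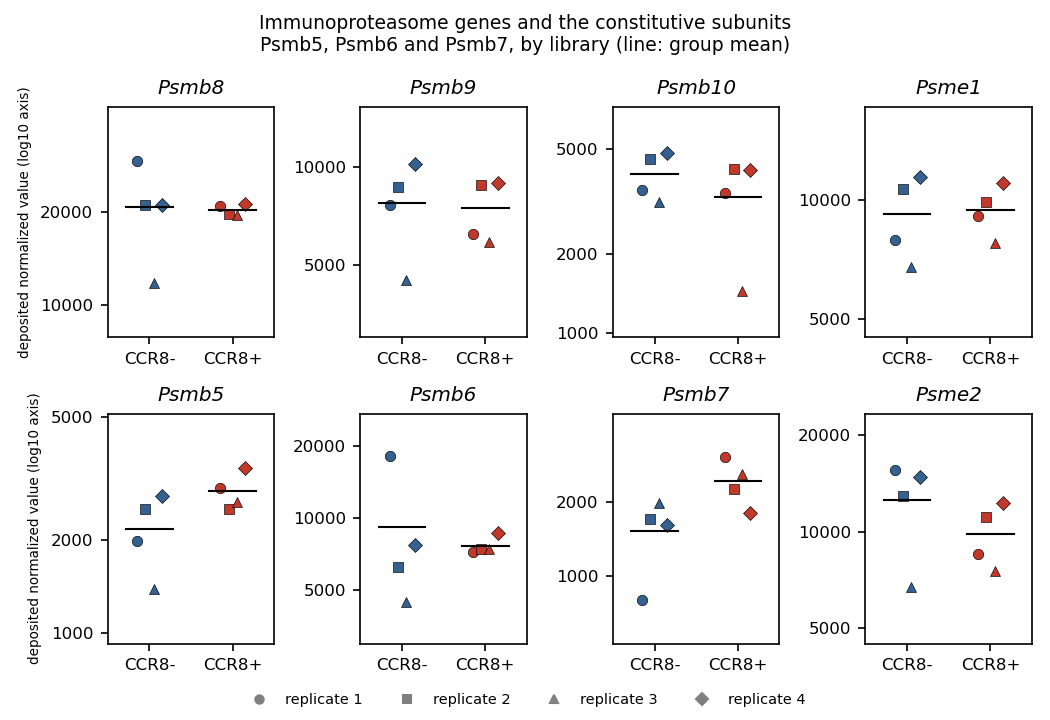
Normalized values (y axis, log10 scale, a separate range for each gene) of the 5 immunoproteasome genes and of the constitutive subunits Psmb5, Psmb6 and Psmb7 in CCR8- and CCR8+ libraries (x axis), with the replicate number as the symbol and the group mean as a line. CCR8- replicate 3 (triangle) is the lowest CCR8- library for all of these genes except Psmb7, and the groups of all 8 genes overlap.

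The ratio of an immunoproteasome subunit to the subunit whose place it takes is free of the scaling between libraries. Within a library, the log2 ratio of Psmb8 to Psmb5 was 3.87, 3.07, 3.09 and 2.93 in CCR8- replicates 1 to 4 and 2.83, 2.96, 2.88 and 2.64 in CCR8+ replicates 1 to 4. All 4 pairs had the lower ratio in the CCR8+ library, and CCR8+ replicate 2 alone lay above a CCR8- library. Means were 3.24 ± 0.43 and 2.83 ± 0.14 (SD, n = 4), a difference of -0.41 with an exact permutation p of 0.0571 (0.171 adjusted over the 3 ratios). Without CCR8- replicate 1 the difference was -0.20 (exact permutation p = 0.114). Of the parts of this ratio, Psmb8 had a fold change of 0.04 and Psmb5 of 0.45.

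For Psmb10 to Psmb7 the log2 ratio was 2.13, 1.42, 0.66 and 1.57 in CCR8- and 0.16, 0.89, -0.84 and 1.20 in CCR8+ replicates. This ratio was also lower in the CCR8+ library of all 4 pairs, by between 0.37 and 1.97 log2 units, and the groups overlapped. The difference of the means was -1.09, larger than the SD of either group (0.60 and 0.91), with an exact permutation p of 0.114 (0.171 adjusted), and without CCR8+ replicate 3 it was -0.70. Of its parts, Psmb10 had a fold change of -0.37 and Psmb7 of 0.72. Psmb9 to Psmb6 gave -1.27, 0.48, 0.01 and 0.40 in CCR8- and -0.20, 0.24, -0.34 and 0.04 in CCR8+ replicates. Here 3 of the 4 pairs were lower in CCR8+ cells and pair 1, with its high Psmb6 in the CCR8- library, was higher by 1.06. The difference was 0.03 (exact permutation p = 0.971, also 0.971 adjusted) and turned to -0.36 without CCR8- replicate 1. None of the 3 ratios passed the adjusted threshold, and with 4 pairs the smallest p of a test within pairs would be 0.125.

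**Figure D5:**
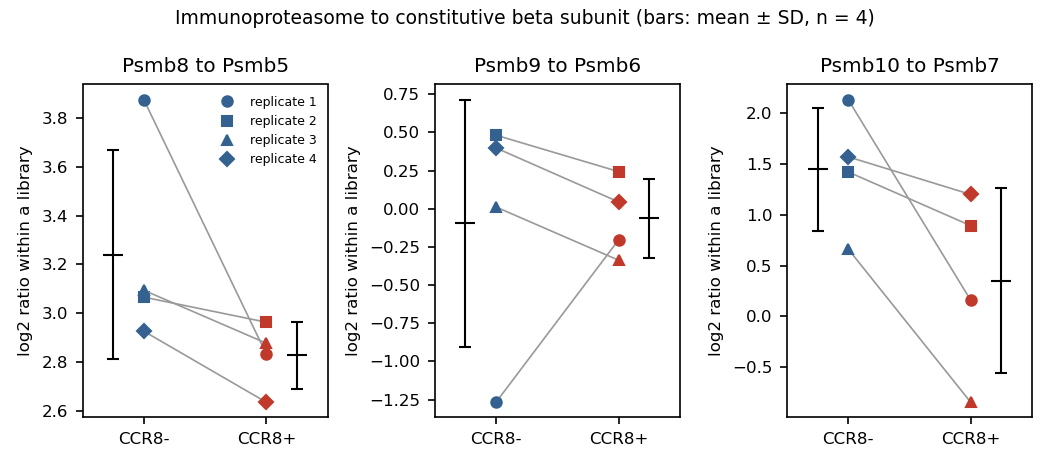
Log2 ratio of an immunoproteasome beta subunit to its constitutive counterpart within each library (y axis, a separate range for each panel) in CCR8- and CCR8+ cells (x axis). Gray lines join libraries with the same replicate number, and black bars give the mean ± SD of 4 libraries. The lines fall in all 4 pairs for Psmb8 to Psmb5 and for Psmb10 to Psmb7, and in 3 of 4 for Psmb9 to Psmb6.

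Summed per kilobase, Psmb8, Psmb9 and Psmb10 made up 50.3%, 65.5%, 59.5% and 63.1% of their total with Psmb5, Psmb6 and Psmb7 in CCR8- replicates 1 to 4. The share was 57.4%, 60.8%, 54.6% and 58.5% in CCR8+ replicates 1 to 4. All CCR8+ shares lay within the range of the CCR8- libraries, whose lowest value came from replicate 1. The share was carried by Psmb8, which per kilobase was above Psmb5 in 8 of 8 libraries. Psmb10 was above Psmb7 in 6 of 8, and Psmb9 was below Psmb6 in 8 of 8.

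The 6 ATPases form the ring of the 19S cap that unfolds the substrate. Their fold changes were above 0 for 5 genes, with a median of 0.17. Psmc6 was at 510.2, 1716, 1224 and 1839.8 in CCR8- replicates 1 to 4 and at 2446, 2409, 2157 and 1860.2 in CCR8+ replicates 1 to 4. The groups did not overlap, though CCR8- replicate 4 and CCR8+ replicate 4 were next to each other, and CCR8- replicate 1 had less than any other library. The log2 fold change was 0.90 (SE 0.37, adjusted p = 0.838, exact permutation p = 0.0286), and 0.49 without CCR8- replicate 1. Psmc2 was higher in all 4 pairs, by between 0.07 and 0.33 log2 units (fold change 0.23, adjusted p = 0.839). Psmc1, Psmc3 and Psmc5 had fold changes of 0.17, 0.17 and 0.01. Psmc4, at -0.12 and at 0.25 without CCR8- replicate 1, was at 9600.0 in CCR8- replicate 1 and between 3166 and 4512 in the other 7 libraries.

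The 11 non-ATPase subunits of the cap include the scaffolds Psmd1 and Psmd2, the ubiquitin receptor Psmd4 and the deubiquitinase Psmd14, which removes the chain before entry. Fold changes were above 0 for 8 of the 11, with a median of 0.14, a range from -0.24 for Psmd3 (0.05 without CCR8+ replicate 1) to 0.39 for Psmd2 (0.16 without CCR8- replicate 1), and 0 non-overlapping groups. Psmd14 was at 4906, 3343, 2870.1 and 2512 in CCR8- and at 5102, 4405, 3489 and 3261 in CCR8+ replicates. It was higher in all 4 pairs although the groups overlapped (fold change 0.28, SE 0.25, adjusted p = 0.846). Psmd8 was also higher in all 4 pairs, by at most 0.30 log2 units. For Psmd4 the levels were 9116, 5394, 3683 and 6031 in CCR8- and 4269, 4833, 6731 and 4486 in CCR8+ replicates, with a fold change of -0.20 (SE 0.28, adjusted p = 0.891) that was 0.02 without CCR8- replicate 1.

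Over both kinds of cap subunit, 13 of 17 genes had a fold change above 0 (median 0.17), and over the 14 constitutive core subunits 11 did (median 0.19). Without CCR8- replicate 3 these counts were 11 of 17 and 7 of 14, and without CCR8- replicate 1 they were 16 of 17 and 14 of 14. Genes of all kinds with a mean of 1000 or more had a median of 0.07. Without CCR8- replicate 3, only 21 of the 48 members had a fold change above 0, compared with 34 without CCR8- replicate 1. The share of all genes above 0 was 52.6% without CCR8- replicate 3 and 44.4% without CCR8- replicate 1.

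Chaperones that assemble the particle had lower median levels per kilobase than the core and cap subunits. Psmd9, a 19S chaperone, was at 14.8, 635, 554 and 915 in CCR8- replicates 1 to 4 and at 540.4, 685, 552 and 576 in CCR8+ replicates 1 to 4. The single low value, 15 reads in CCR8- replicate 1, set its fold change of 1.13 (SE 1.06, adjusted p = 0.847), which was -0.23 without that library. Psmd10, also called gankyrin, was at 2005, 898, 709.6 and 1141 in CCR8- and at 670.1, 1108, 515 and 1025 in CCR8+ replicates (fold change -0.47, SE 0.37, adjusted p = 0.838). Its groups overlapped, and CCR8- replicate 1 was again the highest. The fold change was -0.18 without that library and -0.27 without CCR8+ replicate 3. Psmd5 had a fold change of -0.08, which was 0.21 without CCR8- replicate 1.

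Of the 4 chaperones of the 20S core, Psmg3 was at 147, 381, 211 and 441 in CCR8- and at 335, 532, 608 and 504 in CCR8+ replicates. It was higher in all 4 pairs, and only CCR8+ replicate 1 fell among the CCR8- values (fold change 0.85, SE 0.47, adjusted p = 0.838, and 0.56 without CCR8- replicate 1). In the annotation 26.8% of its exonic bases are shared with Gm26938. The fold changes of Psmg1, Psmg2 and Psmg4 were -0.29, -0.25 and -0.27. Psmg1 was at 59.3 in CCR8+ replicate 3 and at 191 in CCR8- replicate 1, while the other 6 libraries held between 474 and 824. Its fold change was 0.58 without CCR8+ replicate 3, and 0.09 by edgeR and 0.10 by DESeq2 on the recovered reads. With the replicate number as a term, edgeR gave -0.12 and DESeq2 -0.13.

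Psme3, which codes for the nuclear activator, and Psme4 had fold changes of 0.07 and -0.04. Psmf1, an inhibitor of the core, was at 2101, 1033, 1112 and 1483 in CCR8- and at 1186, 969.8, 1086 and 1256 in CCR8+ replicates. All 4 pairs had the lower value in the CCR8+ library, with overlapping groups (fold change -0.30, SE 0.27, adjusted p = 0.846), and the fold change was -0.09 without CCR8- replicate 1. Psme2b was lower in all 4 pairs as well, with a fold change of -0.42 (SE 0.38, adjusted p = 0.846) that was -0.25 without CCR8- replicate 1 and -0.22 without CCR8+ replicate 3. Of the 788 windows of 50 bases in its transcript, 541 (68.7%) occur letter for letter in transcripts of Psme2. Reads that lie within such stretches cannot be assigned to either gene. The methods state that expression was taken from uniquely mapped reads, so such reads may be absent from the values of both genes. Psmc3ip was at 328, 84.5, 124 and 134 in CCR8- and at 94.0, 193, 282 and 87.9 in CCR8+ replicates (fold change -0.01, SE 0.75, adjusted p = 0.999).

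The RefSeq promoter windows (GRCm38.p6) were searched for the cores of 3 motifs that are textbook control elements of these genes. Windows were found for 41 of the 48 members, and the 250 bases before the start were read on both strands. GAAANNGAA, the core of the interferon-stimulated response element, was in the window of 7.32% of these members and of 8.18% of all genes. TTCNNNGAA, the core of the gamma-activated site, was in 4.88% against 8.13%, and TGACNNNGC, the core of the antioxidant response element, in 12.2% against 11.5%. The members' shares rest on 3, 2 and 5 genes, and their differences from the shares of all genes were not tested. Among the 5 immunoproteasome genes and the 3 members with non-overlapping groups, 2 windows held a match, and these are shown with the matched letters in capitals and 10 bases on each side. The stretch of Psmb8, chr17:34198088-34198116 on the plus strand, starts 107 bases before 1 annotated start and overlaps an exon of another Psmb8 transcript. That of Psmc6, chr14:45329587-45329615 on the plus strand, starts 237 bases before the start, overlaps no annotated exon, and holds the core in reverse orientation. A match is a description of the letters and not of binding.
Psmb8: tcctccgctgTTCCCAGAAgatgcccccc
Psmc6: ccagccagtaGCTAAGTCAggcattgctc

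Genes upstream and downstream of the proteasome showed no call by limma either. Of 5 further proteasome genes outside the name rule (Pomp, Shfm1, Adrm1, Usp14 and Uchl5), 2 had a fold change above 0 and the range was -0.09 to 0.16. Pomp, which matures the core, was at 9050.3 in CCR8- replicate 1 and between 2810.5 and 6096 in the other libraries. Among 14 genes of ubiquitin and its delivery the median was -0.17, with 0 genes at an unadjusted p under 0.05. That median was -0.01 without CCR8- replicate 3, -0.27 without CCR8+ replicate 3, and 0.03 without both libraries numbered 1. The ubiquitin gene Ubb was at 201838 in CCR8- replicate 1 and between 54281 and 87826 in the other 7 libraries. Among 8 genes that control proteasome transcription, including Nfe2l1 and Nfe2l2, 0 had an unadjusted p under 0.05 and the median was 0.06.

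Among 6 cytosolic and endoplasmic peptidases that trim the released peptides, 5 had a fold change above 0 and the median was 0.55, which was 0.15 without CCR8- replicate 1. Thop1 was at 0.985 (1 read), 140.4, 208 and 62.5 in CCR8- and at 396, 208, 295 and 212 in CCR8+ replicates. The groups did not overlap, by a narrow margin at 208 (fold change 2.62, or 1.13 without CCR8- replicate 1, adjusted p = 0.838, exact permutation p = 0.0286). Of 11 genes of peptide loading onto MHC class I, 8 had a fold change above 0 (median 0.09). Pdia3, the disulfide isomerase of the loading complex, was at 13299.7, 14533, 10901 and 13522 in CCR8- and at 16815, 16381, 14854 and 15641 in CCR8+ replicates. Its groups did not overlap, with a fold change of 0.29 (SE 0.20, adjusted p = 0.838). Nlrc5, the transactivator of class I genes and of Psmb9, was at 1064, 540.2, 699 and 797 in CCR8- and at 175, 325, 440.2 and 683 in CCR8+ replicates. It was lower in all 4 pairs (fold change -1.05, SE 0.44, adjusted p = 0.838), and its unadjusted p in limma was below 0.05. Without CCR8+ replicate 1 its fold change was -0.71.

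The 12 genes of interferon signaling had a median fold change of -0.37 (0.04 over all genes), with 11 of 12 below 0 where 47.6% of all genes were. At an unadjusted p under 0.05, 2 of the 12 were lower (2.29% of all genes), and 1 was lower without overlap (2.03% of all genes). The median of the list was 0.005, -0.38, -0.86 and -0.27 in pairs 1 to 4, and over the groups it was -0.13 without CCR8+ replicate 3 and -0.22 without CCR8- replicate 4. Ifngr2, a chain of the interferon gamma receptor, was at 1184, 1312, 665 and 1085 in CCR8- and at 656, 577, 366 and 231 in CCR8+ replicates. All CCR8+ libraries lay below all CCR8- libraries, closely so at 656 and 665. The log2 fold change was -1.28 (SE 0.39, adjusted p = 0.838, exact permutation p = 0.0286). Irf9, a transcription factor of the type I interferon response, was at 1441, 2000.0, 1374 and 1429 in CCR8- and at 1519.6, 1056, 631 and 797 in CCR8+ replicates (fold change -0.70, SE 0.30, adjusted p = 0.838). Only CCR8+ replicate 1 reached into the CCR8- range. Irf1, which drives immunoproteasome genes after interferon exposure, had a fold change of -0.37 with an adjusted p of 0.838, and of -0.11 without CCR8+ replicate 3. The 6 cell cycle genes examined had a median of 0.07 with 3 above 0.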

How the data were processed

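Reads of 8 libraries from sorted cells were processed by the authors. Per the labels and the methods, they trimmed reads with Cutadapt, checked them with FastQC, aligned them to NCBIM37 with hisat2, counted them with HTSeq and used DESeq2. Neither versions nor strandedness were given in the sources used here. Each deposited value is a normalized signal, read counts over 1 scaling factor for each library. Dividing by the worth of 1 read gave whole reads (tolerance 0.01) for 100% of values.

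Values were tested as deposited, as log2(value + 1), by limma 3.58.1 in R 4.3.3 with an intensity trend and Benjamini-Hochberg adjustment over 11032 genes (mean value of 10 or more). A fold change is a difference on that scale. The added 1 understates the change of low genes, but a single library far below the rest can enlarge it. For Psmd9 it was 1.13, against 0.15 by edgeR and by DESeq2 with no block and 0.72 by both with the replicate block. The threshold for a call was an adjusted p of 0.05. Single ratios had exact two-sided permutation tests over 70 assignments of the labels. The main samples were all 8 libraries with no block. Recovered reads were also tested with edgeR 4.0.16 (quasi-likelihood) and DESeq2 1.42.0. A value of 3 reads was 2.21 to 3.42 units, and such limits cover counting error only. The steps were tested on simulated data with changes larger than the fold change of any member. That test does not show how small a change these libraries could reveal.

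Members and gene lists were chosen with earlier results of these data known. Named genes were the immunoproteasome genes with their counterparts, members with non-overlapping groups or an unadjusted p under 0.05, the 10 members with the largest fold change, the highest and the lowest member, and pathway genes with non-overlapping groups or an unadjusted p under 0.05. Other members and pathway genes with values (Psma1, Psmb3, Psmc2, Psmc4, Psmd4, Psmd8, Psmd14, Psmf1, Psmg1, Pomp, Ubb and those given by fold change alone) were chosen after their values were seen. Gene positions and exons are from GENCODE M21 (GRCm38), a build the authors did not use, and serve to locate genes, for exon length and for exons shared with other genes. The 1 gene name listed more than once is not a member.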

Additional observations from a re-analysis of the deposited data

Results flagged for a closer look

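In 50 groups of 4 libraries (the named genes and the 3 ratios), 2 held a library far from the other 3 by Dixon's limit for 4 values, where chance gives about 1 in 20 groups. Psmd9 was at 14.8 in CCR8- replicate 1, far below the other CCR8- libraries. Irf9 was at 2000.0 in CCR8- replicate 2, far above the other CCR8- libraries.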

How the results depend on the processing

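With 23 alternative settings, 0 members were called in any, and of 506 values of the 22 named genes 26 changed sign, while 16 genes kept their direction in every setting. All genes called numbered 1 by limma with the replicate block, 26 by DESeq2 and 124 by DESeq2 with the block, against 0 by limma and by edgeR. Leaving out libraries gave between 3 and 9 members with non-overlapping groups, beside 3.45% to 6.37% of all genes higher and 2.88% to 6.92% lower. Psma6, Psmb4 and Psmc6 were among them each time by construction, since groups that are apart in all libraries stay apart in fewer. Leaving out libraries also gave ranges of -0.36 to 0.22 for the ratio of Psmb9 to Psmb6, -0.21 to 0.22 for Psmb8 and -0.26 to 0.13 for Psmb9. They were -0.0774 to 0.18 for Psme1, -0.33 to 0.39 for Psmb6, -0.23 to 1.73 for Psmd9 and -0.40 to 0.59 for Psmc3ip. Psmb8 was at -0.034 with equal library totals, at -0.0337 by edgeR and at -0.0389 by DESeq2, Psme1 at -0.00959 with equal totals, and Psmc3ip at 0.0153 by edgeR and 0.0138 by DESeq2, both with the block. The cause was not tested.

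Deviations from the group means correlated by 0.0682 to 0.217 between same-numbered libraries and by -0.17 to 0.10 between others, and 7 of 8 libraries correlated best with their own number, a hint from the data and not from the design. With the replicate block 2 members had an unadjusted p under 0.05 instead of 4, and the tests of the 3 ratios within pairs gave exact p-values of 0.125, 1.0 and 0.125. With 4 libraries a group and the spread of CCR8- replicates 1 and 3, 95% intervals of members spanned at least 0.43 log2 units on each side of the estimate.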
